A study of Sus scrofa with 10 samples.

Results

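The arrays of 10 sows, 1 per sow, were compared by the number of litters that each sow had delivered before. The sows with 4 or more previous farrowings, 5 animals, were set against the sows with 2 or 3, also 5 animals, so that all 10 sows of the series entered the comparison. The class of a sow was set by its farrowing record alone and used no expression value. The tissue was the ampullary-isthmic junction of the oviduct, the stretch in which fertilization takes place in pigs, taken in spontaneous oestrus without hormone treatment, whole and with all layers of its wall.

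The sows with 4 or more farrowings were AI696 with 7, AI788 and AI792 with 6 each, AI837 with 5 and AI943 with 4. The sows with 2 or 3 were AI991, AI992 and AI993 with 3 each, and AI1059 and AI1061 with 2 each. Of the sows with 4 or more, 3 had been inseminated (AI792, AI837 and AI943) and 2 had not (AI696 and AI788). Of the sows with 2 or 3, 2 had been inseminated (AI993 and AI1059) and 3 had not (AI991, AI992 and AI1061). Insemination was therefore a term of every model unless stated. Surgery took place on day 1 in 4 of the 5 sows with more farrowings and in 3 of the 5 with fewer, and the mean blood progesterone was higher in the sows with more. The farrowings fall as the identity numbers of the sows increase and ages were not given, so the number of farrowings, age and any other difference between older and younger sows cannot be told apart.

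A sow that has farrowed several times has passed through as many pregnancies and lactations and is older. The oviduct wall that the arrays sampled holds ciliated and secretory epithelial cells, stroma, vessels, leucocytes and smooth muscle. Its epithelium is remodelled in each cycle under oestradiol and progesterone, and it secretes oviductin, complement and acute phase proteins into the lumen where the gametes meet. Protein-folding chaperones, mitochondrial transcripts and interferon-driven genes are groups often followed with age in mammalian tissues, and they are described in turn below. The groups of chaperones and of genes in mitochondrial DNA were formed after the values were seen, so they test no expectation about age.

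Oviductin (OVGP1), the secreted glycoprotein that marks the oviduct epithelium, lay between 15.91 and 15.98 on the log2 intensity scale in every sow, near the top of the scale. The fat marker ADIPOQ (6.59 to 6.72) and the ovarian steroid genes STAR (6.67 to 6.94) and HSD3B1 (6.47 to 6.83) lay below the median of all values (7.09) in every sow. The array of AI1061, a sow with 2 farrowings, stood apart, with a correlation of 0.949 to the median of the other arrays against 0.980 to 0.990 for the other 9. In it the epithelial genes EPCAM (12.46, against 13.24 to 14.23 in the others) and KRT18 (12.69, against 13.17 to 13.97) were the lowest of the 10. Values without this sow are given beside several of the results. In a whole tissue, fewer cells of a type and less RNA per cell cannot be told apart.

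No gene passed the test between the 2 farrowing classes. Of 4560 genes with a symbol, 0 had an adjusted p under 0.05 in limma, with Benjamini-Hochberg adjustment (the smallest was 0.912), and of 45220 features on the array also 0 did (smallest 0.912). An unadjusted p under 0.05 was found for 147 genes (3.22%), 96 higher (2.11%) and 51 lower (1.12%) in sows with 4 or more farrowings, where 228 would be found by chance if no gene differed. For features it was 1700 (3.76%), where 2261 would be found by chance. The classes did not overlap, so that every sow of one lay above every sow of the other, in 30 genes (0.658%), 16 higher and 14 lower with more farrowings. All differences below are therefore descriptions of these 10 sows, given as the difference in log2 level, 4 or more minus 2 or 3, with its standard error (SE), and none passed over all genes. No named gene had an adjusted p under 0.912 in that limma fit. The exact permutation test of single genes moved the classes within the inseminated and within the non-inseminated sows, was two-sided and could not go below p = 0.01. It was run only on genes picked by their values in these same sows, so a small p from it is no independent evidence. Its p is printed for some of these genes only. Over all genes 57.5% were higher in mean with more farrowings, and the median difference was 0.03.

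Chaperones and co-chaperones fold new proteins and refold damaged ones. Of them, 6 genes singled out after their values were seen were highest in the 3 sows with 6 or 7 farrowings. The mean over a list of 11 measured chaperones, which left out the co-chaperones BAG3 and AHSA1 named below, did not follow that order. Relative to the mean of all sows, that mean was 0.82 in AI696, -0.08 in AI788 and 0.30 in AI792, -0.09 and -0.25 in the sows with 5 and 4 farrowings, and from -0.37 to 0.12 in those with 2 or 3. HSPH1, a large chaperone of the HSP110 family that recharges HSP70, was at 12.87, 12.21, 12.75, 11.75 and 11.65 in the sows with 7, 6, 6, 5 and 4 farrowings (AI696, AI788, AI792, AI837 and AI943). It was at 11.70, 11.83 and 11.56 in the sows with 3 (AI991, AI992 and AI993) and at 11.36 and 11.57 in those with 2 (AI1059 and AI1061). The sows with 6 or 7 farrowings lay above all others, while those with 4 or 5 lay among the sows with 2 or 3. The difference between the classes was 0.71 ± 0.22 (SE), or 1.64-fold (exact permutation test, p = 0.01, the smallest it can give).

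HSP90AA1, the stress-inducible HSP90 chaperone, was also highest in the sows with 6 or 7 farrowings in the mean of its 6 features, but not in each feature. It was at 14.36, 14.17, 14.03, 13.76 and 13.47 in the sows with 7 down to 4 farrowings, and at 13.71, 13.50, 13.84, 13.28 and 13.44 in AI991, AI992, AI993, AI1059 and AI1061 (difference 0.45 ± 0.17, and 0.27 by its brightest feature alone). The level in AI943, with 4 farrowings, was below that of 3 of the 5 sows with fewer. The brightest feature of HSP90AA1 was highest in AI1061, with 2 farrowings, at 15.396. It was at 15.206, 15.335 and 15.1 in AI696, AI788 and AI792. HSPD1, the HSP60 chaperone of the mitochondrial matrix, ranged from 11.31 to 11.89 with more farrowings and from 10.89 to 11.45 with fewer (difference 0.38 ± 0.13), and all of its 20 features were higher in mean. Its partner HSPE1 had a difference of 0.23 ± 0.14.

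The inducible HSP70 gene HSP70.2 and its co-chaperones DNAJB1, which delivers clients to HSP70, and BAG3, which couples it to autophagy, had their highest level in AI696. HSP70.2 was at 13.14 in AI696, 11.69 in AI788, 12.13 in AI792, 11.21 in AI837 and 10.02 in AI943, the last the lowest of all 10 sows, and between 10.26 and 11.60 in the sows with 2 or 3 farrowings. Its difference of 0.99 ± 0.47 (exact permutation test, p = 0.12) was 0.59 without AI696. DNAJB1 was at 13.04 in AI696 and between 10.88 and 11.64 in the other 4 sows of that class, against 10.20 to 11.21 (difference 0.83 ± 0.35, and 0.41 without AI696). BAG3 was at 11.13 in AI696 and at 9.70 to 10.47 in the other 4, against 9.55 to 9.95 (difference 0.59 ± 0.22, and 0.34 without AI696). A single sow thus carried much of the difference in these 3 genes.

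**Figure D1:**
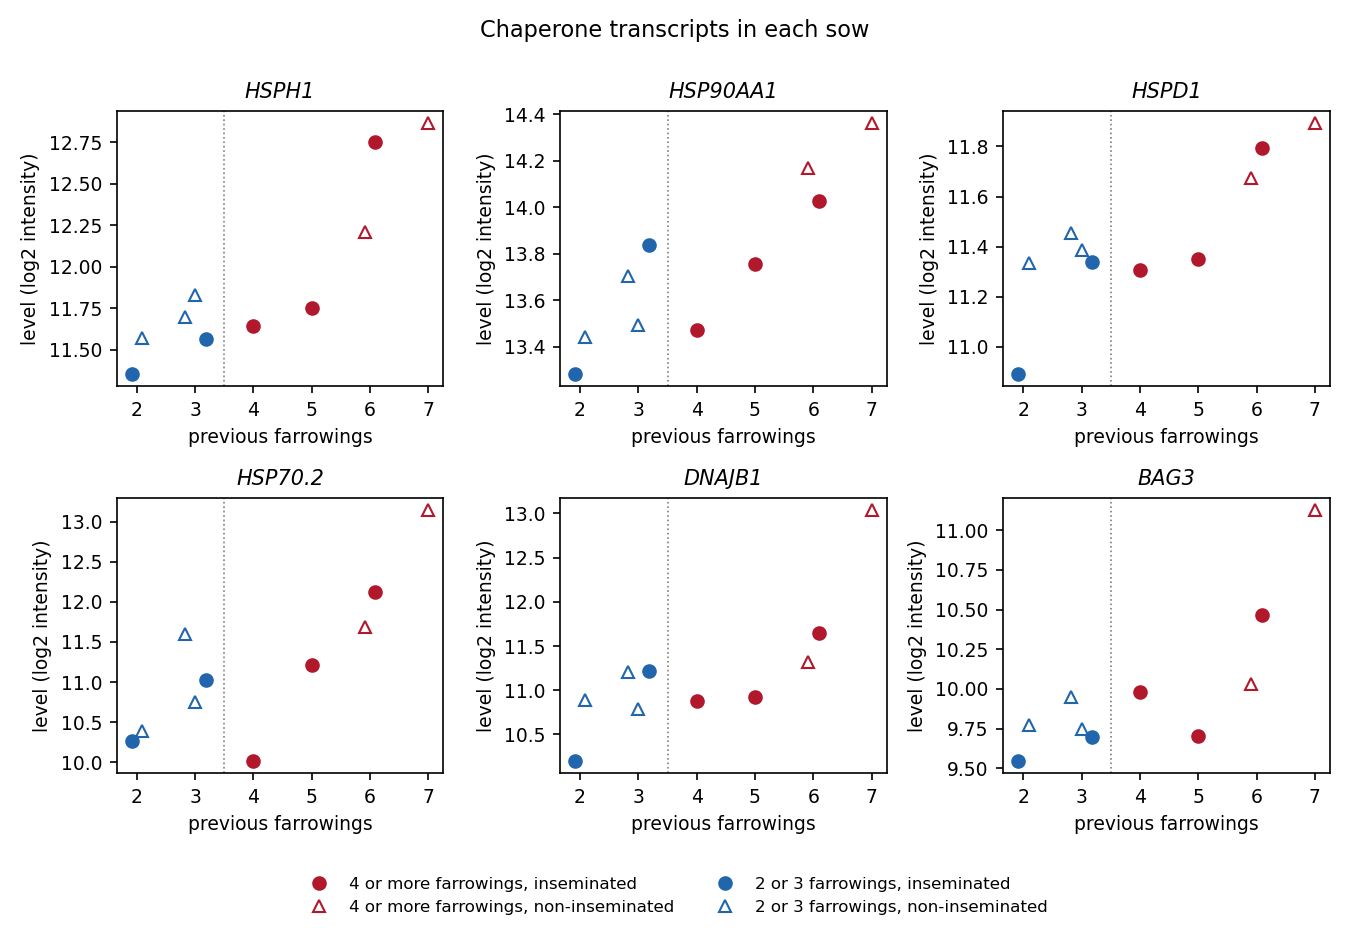
Level (log2 intensity) of 6 chaperone and co-chaperone genes in each of the 10 sows against its number of previous farrowings; the dotted line separates the classes, filled circles are inseminated and open triangles non-inseminated sows, and points of sows with equal numbers are set slightly apart. In all 6 panels the 3 sows with 6 or 7 farrowings lie above the other 7, and the sows with 4 or 5 overlap those with 2 or 3.

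The number of farrowings was also entered as a linear term in place of the classes. At an unadjusted p under 0.05 this gave 423 genes (9.28%), 302 with a higher and 121 with a lower level per farrowing, and 0 after adjustment (smallest adjusted p 0.519 in limma). Of the 15 genes with the smallest p in that fit, 7 were chaperones or co-chaperones, namely HSPH1, HSP90AA1, HSP70.2, HSPD1, DNAJB1, AHSA1, which activates the ATPase of HSP90, and BAG3. The slopes were 0.25 ± 0.04 (SE) log2 units per farrowing for HSPH1, 0.17 ± 0.03 for HSP90AA1, 0.42 ± 0.09 for HSP70.2 and 0.13 ± 0.03 for HSPD1, and 0.23 ± 0.04 for CDH16, a cadherin of epithelia, each with an adjusted p of 0.519 in limma. The 3 sows with 6 or 7 farrowings lay above all 7 others in 66 of 4560 genes (1.45%), among them these 7 genes and HSPCB, the constitutive HSP90 chain, and below all others in 23 (0.504%). This ranking was made after the values were seen. The 7 genes were singled out once the ranking was known. The share of chaperones among all 4560 genes was not counted, so 7 of 15 is a description only.

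The list of immediate early and heat shock genes, which respond quickly to handling and injury, had 17 of 23 measured members higher in mean and 6 lower. The median difference was 0.13 beside 0.03 over all genes. An unadjusted p under 0.05 was found for 4 members (HSPH1, HSPD1, HSP90AA1 and DNAJB1), against 3.22% of all genes. Its 11 chaperones, a subset made after the values were seen, had 8 members higher and a median of 0.23. The chaperone of the endoplasmic reticulum HSPA5 (0.08 ± 0.50) and the small heat shock protein HSPB1 (-0.25 ± 0.23) were not among the higher members beyond their error. The immediate early gene FOS had a difference of 0.66 ± 0.50. The median of the 11 chaperones was 0.26 without AI696, but their mean difference was then 0.11 in place of 0.32. The median was 0.31 among inseminated and 0.36 among non-inseminated sows, 0.33 among the sows operated on day 1, and 0.51 with progesterone as a further term.

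Transcripts of the mitochondrial genome were higher in mean in the sows with more farrowings, with an exception. The mitochondrial DNA encodes 13 proteins of the respiratory chain and ATP synthase, of which 12 were higher in mean. The median difference of the 13 was 0.20. These 13 were taken out of the list of mitochondrial energy genes after the values were seen. ND1, a subunit of complex I, was at 12.26, 12.58, 12.51, 12.71 and 12.81 in the sows with 7, 6, 6, 5 and 4 farrowings and at 11.80, 12.01, 12.49, 11.88 and 12.25 in AI991, AI992, AI993, AI1059 and AI1061. Only AI993 among the sows with fewer reached into the range of the class with more. The difference was 0.44 ± 0.15 (exact permutation test, p = 0.02), and all 20 features of ND1 were higher in mean. Restricted to day 1 surgeries, the difference was 0.16. The median of the 13 genes was 0.13 among these sows, 0.13 among non-inseminated sows, 0.12 without AI1059 and 0.11 with progesterone as a further term.

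ATP6, a subunit of the proton channel of ATP synthase, lay between 14.92 and 15.35 with more and between 14.35 and 14.99 with fewer farrowings (difference 0.43 ± 0.15, and 0.29 without AI1059). COX2, here the mitochondrial cytochrome c oxidase subunit and not the prostaglandin synthase PTGS2, had a difference of 0.29 ± 0.11, and CYTB of complex III one of 0.30 ± 0.13 with all 21 features higher. For these 3 genes the difference was smaller by the brightest feature alone, at 0.12 for ATP6, 0.07 for COX2 and 0.12 for CYTB, and ATP6 had 2 features and COX2 and CYTB 1 each near the top of the intensity scale. Restricted to day 1 surgeries, it was 0.23 for ATP6 and 0.13 for COX2. COX3 did not overlap between the classes (0.20 ± 0.10). The level of COX1 was nearly the same in both (0.01 ± 0.17).

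ND6 was the member that went the other way. It is the only protein gene on the light strand of the mitochondrial DNA, the other 12 lying on the heavy strand. It was at 8.22, 8.30, 8.44, 8.30 and 8.24 in the sows with 7, 6, 6, 5 and 4 farrowings and at 8.64, 8.91, 8.58, 9.14 and 9.54 in AI991, AI992, AI993, AI1059 and AI1061. The classes did not overlap, and the sows with 2 farrowings had the highest levels of all 10. The difference was -0.65 ± 0.18, or 1.57-fold lower with more farrowings (exact permutation test, p = 0.01), and rested on 1 feature. Without AI1061 it was -0.53.

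The wider list of mitochondrial energy genes had 29 of 44 measured members higher in mean and 15 lower, with a median difference of 0.10. An unadjusted p under 0.05 was found for 7 members, 5 of them encoded in mitochondrial DNA, against 3.22% of all genes. The median was 0.04 without AI1059, 0.06 without AI1061 and 0.02 (0.015) among the sows operated on day 1. Among those of the nucleus, the ATP synthase beta chain ATP5B had a difference of 0.35 ± 0.15 and the inner membrane carrier UCP2 one of 0.35 ± 0.10 (exact permutation test, p = 0.01). UCP2 was at 8.54, 8.33, 8.10, 8.15 and 8.21 in the sows with 7, 6, 6, 5 and 4 farrowings and between 7.73 and 8.13 in the others. Only AI991, with 3 farrowings, reached into the range of the sows with more.

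Cytosolic ribosomal proteins went in the opposite direction by small amounts. Of 36 measured members 30 were lower and 6 higher in mean with more farrowings, where 42.5% of all genes were lower, and the median difference was -0.09. The members ranged from -0.33 to 0.11. RPL18, a protein of the large subunit, had the lowest (-0.33 ± 0.15, and -0.18 among the sows operated on day 1) and was the 1 member with an unadjusted p under 0.05. The list mean of each sow, relative to the mean of all sows, ran from -0.11 to 0.01 with more and from -0.05 to 0.14 with fewer farrowings, so the classes overlapped.

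**Figure D2:**
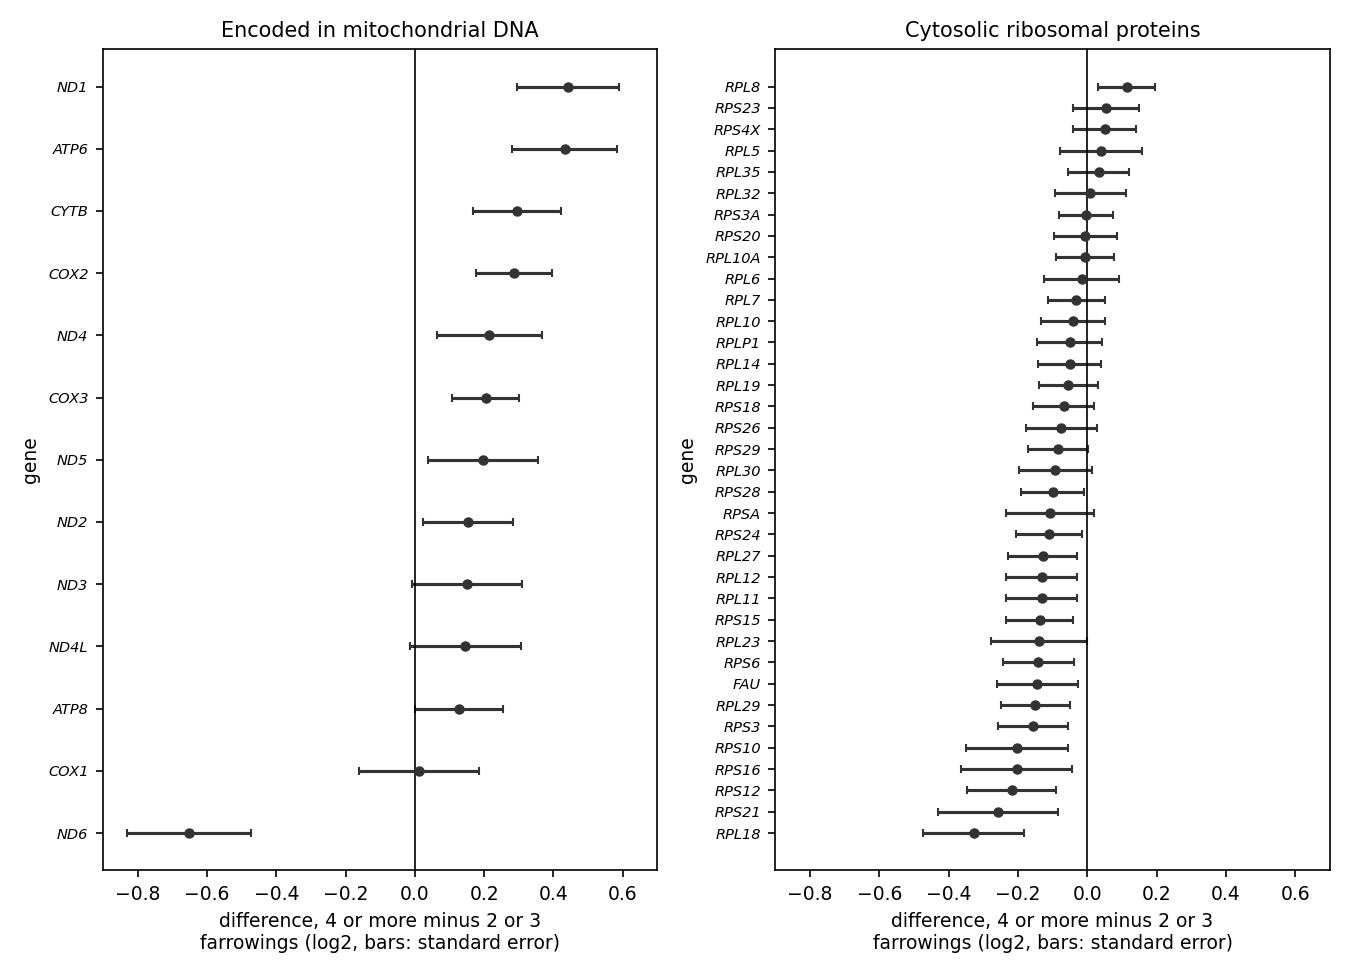
Difference in level (log2, 4 or more minus 2 or 3 farrowings) with its standard error for the 13 proteins encoded in mitochondrial DNA (left) and the 36 measured cytosolic ribosomal proteins (right). ND6 lies at -0.65 and the other 12 mitochondrial genes above 0, while 30 of the 36 ribosomal proteins lie below 0.

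Secreted proteins of the acute phase and of complement, part of the defence of the oviduct lumen, held the only gene, HP, with both a 2-fold difference and an unadjusted p under 0.05. HP, haptoglobin, which binds free haemoglobin, was at 9.30, 10.46, 9.70, 11.11 and 9.77 in the sows with 7, 6, 6, 5 and 4 farrowings. It was at 9.99, 8.05, 8.40, 8.91 and 8.74 in AI991, AI992, AI993, AI1059 and AI1061. The sow AI991 lay within the range of the class with more farrowings and the other 4 below it. The difference was 1.25 ± 0.43, or 2.38-fold (exact permutation test, p = 0.04), with all 5 features higher. It was 1.54 among inseminated and 0.96 among non-inseminated sows, 1.02 to 1.54 with each sow left out in turn, and 0.68 with progesterone as a further term.

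C3, the central complement component, was at 10.01, 9.35, 12.10, 9.96 and 11.40 in the sows with 7, 6, 6, 5 and 4 farrowings and at 9.69, 8.91, 9.38, 10.03 and 9.25 in AI991, AI992, AI993, AI1059 and AI1061. The inseminated sows AI792 and AI943 stood above all others and the remaining 8 overlapped. The difference was 0.92 ± 0.41 (exact permutation test, p = 0.1), with 1.45 among inseminated and 0.40 among non-inseminated sows.

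The list of complement and acute phase genes as a whole did not share these differences. Of 39 measured members 22 were higher and 17 lower in mean. Their median was 0.06, and it was -0.02 without AI992 and -0.004 without AI1059. Factor B of the alternative pathway, CFB, had a difference of 0.42 ± 0.20, the inter-alpha-trypsin inhibitor chain ITIH3 one of -0.68 ± 0.33 and the antiprotease SERPINA1 one of -0.21 ± 0.33. Of the 39 members 3 had an unadjusted p under 0.05, among them HP and C3, against 3.22% of all genes.

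Interferon-stimulated genes, which are switched on by interferons through STAT and IRF factors, were higher in mean in 25 of 29 measured members. The median was 0.25, and 1 member had an unadjusted p under 0.05, against 3.22% of all genes. That member was IRF1, a transcription factor of the pathway, at 9.74, 9.60, 9.99, 9.22 and 9.47 with more farrowings and between 8.87 and 9.50 with fewer (difference 0.40 ± 0.18). Others were the ISG15 protease USP18 (0.63 ± 0.33, and 0.39 without AI788), the antiviral GTPase MX1 (0.57 ± 0.40), OASL (0.48 ± 0.29) and ISG15 itself (0.39 ± 0.53). The list mean per sow was highest in AI788 (0.46), AI792 (0.29) and AI991 (0.20) and overlapped widely, from -0.17 to 0.46 with more and from -0.29 to 0.20 with fewer farrowings. The median was 0.08 among the sows operated on day 1, 0.10 without AI788, 0.10 among inseminated and 0.35 among non-inseminated sows, and 0.13 with progesterone as a further term.

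Of the antigen presentation genes, 18 of 27 measured members were higher in mean. The list median was 0.09, and -0.10 without AI792. TAP1, a chain of the peptide transporter of the endoplasmic reticulum, was at 9.0 in AI792 and between 7.91 and 8.07 in the other sows with 4 or more farrowings, against 7.09 to 7.93 (difference 0.56 ± 0.23). Cytokines and chemokines had 26 members higher and 26 lower of 52 and a median of 0. Among them IL18, which drives interferon gamma production, was lower with more farrowings (-0.65 ± 0.22; exact permutation test, p = 0.04), at 6.78 in AI696, 7.36 in AI788, 8.27 in AI792, 8.26 in AI837 and 7.88 in AI943 against 7.84 to 8.53. The difference in IL18 was -0.21 among inseminated and -1.1 among non-inseminated sows, and -0.44 without AI696. In AI696 the 2 features of IL18 read 7.80 and 5.75, the latter under the 1st percentile of all values (6.145). By the brighter feature alone the difference was -0.46.

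Neutrophil and antimicrobial genes had 11 of 14 measured members lower in mean, and their median was -0.11. Only 5 of the 14 lay above the array median. The 3 higher members included S100A8 (0.05 ± 0.12) and CXCR2 (0.19 ± 0.18). Among the lower ones S100A9, a calcium-binding protein of neutrophils, was at 8.45 in AI1059 and 8.20 in AI1061, the sows with 2 farrowings. In the other 8 sows S100A9 lay between 6.5 and 6.98 (difference -0.71 ± 0.36). It was -0.34 without AI1059 and -0.32 among the sows operated on day 1. SIGLEC1, a lectin of macrophages, was at 9.20 in AI1061 and at most at 7.45 in all other sows, and its classes did not overlap (difference -0.75 ± 0.40, and -0.40 without AI1061). The macrophage list had 12 of 21 measured members higher and 9 lower, and the list of T and NK cells 12 of 24 in each direction.

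**Figure D3:**
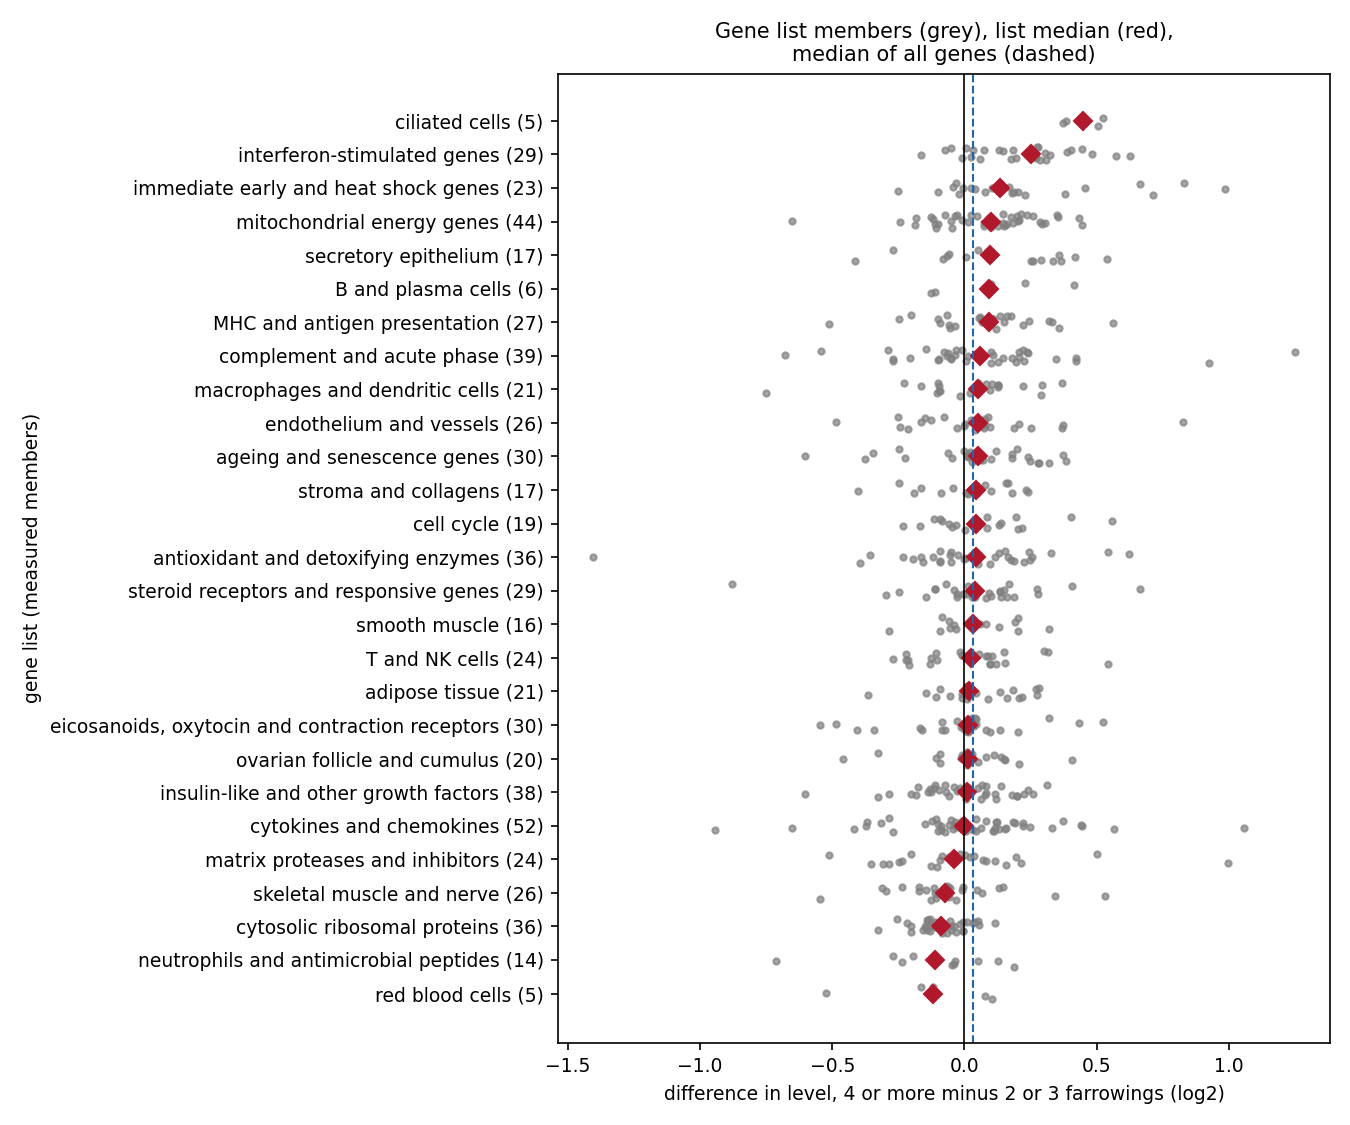
Difference in level (log2, 4 or more minus 2 or 3 farrowings) for the measured members of 27 gene lists (grey points), with the list median (red diamond), the median of all 4560 genes (dashed line, 0.03) and the number of measured members in brackets. The lists of ciliated cells (0.45) and interferon-stimulated genes (0.25) have the highest medians, and those of red blood cells (-0.12) and neutrophils (-0.11) the lowest.

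Ciliated cell genes, which build the beating cilia that move gametes and fluid, were higher in mean in all 5 measured members of 28 listed, by 0.37 to 0.53. The dynein chain DNAH9 had a difference of 0.37 ± 0.20 (0.22 without AI1061) and the adenylate kinase of cilia AK7 one of 0.53 ± 0.29 (0.28 without AI1061). The list mean was -1.12 in AI1061, -0.33 in AI1059 and between 0.01 and 0.54 in the other 8 sows, and without AI1061 the list median was 0.22. MYCBPAP, a partner of the MYC-binding protein, was at 11.90, 11.96, 11.71, 11.85 and 11.64 in the sows with 7, 6, 6, 5 and 4 farrowings and at 11.15, 11.53, 10.64, 11.36 and 10.07 in AI991, AI992, AI993, AI1059 and AI1061. Its classes did not overlap (difference 0.88 ± 0.26, and 0.67 without AI1061). ENO4, an enolase of the sperm tail in mice, had a difference of 0.86 ± 0.32, which was 0.60 without AI1061, the sow with its lowest level (8.84). Secretory epithelium genes had 12 of 17 measured members higher, and the median was 0.10, or 0.01 without AI1061. The part of the low epithelial level of AI1061 in these differences was not tested beyond leaving the sow out.

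IGFBP5, a secreted protein that binds insulin-like growth factors and holds them in the matrix, was lower with more farrowings and did not overlap between the classes. It was at 9.22, 9.24, 9.54, 9.65 and 9.20 in the sows with 7, 6, 6, 5 and 4 farrowings and at 10.25, 9.68, 10.002, 9.76 and 10.12 in AI991, AI992, AI993, AI1059 and AI1061. The difference was -0.61 ± 0.15, or 1.52-fold lower (exact permutation test, p = 0.02), -0.42 among inseminated and -0.79 among non-inseminated sows, on 1 feature. Of the 38 measured growth factor genes 20 were higher and 18 lower in mean (median 0.01), IGFBP5 being the 1 member with an unadjusted p under 0.05. The receptor IGF1R (0.24) and the ligands IGF1 (-0.07) and IGF2 (-0.14) differed little.

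IVD, isovaleryl-CoA dehydrogenase, which breaks down leucine in mitochondria, had the smallest unadjusted p of all genes. It was at 8.30, 8.40, 8.76, 8.89 and 8.71 in the sows with 7, 6, 6, 5 and 4 farrowings and at 8.93, 9.04, 9.02, 9.31 and 8.83 in AI991, AI992, AI993, AI1059 and AI1061. The classes overlapped only in AI837 and AI1061. The difference was -0.48 ± 0.10 (exact permutation test, p = 0.01), with all 3 features lower, and it ran from -0.56 to -0.44 with each sow left out. BCO2, which cleaves carotenoids in mitochondria, was lower by a similar amount (-0.49 ± 0.12), at 7.29 to 8.07 against 7.72 to 8.40.

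**Figure D4:**
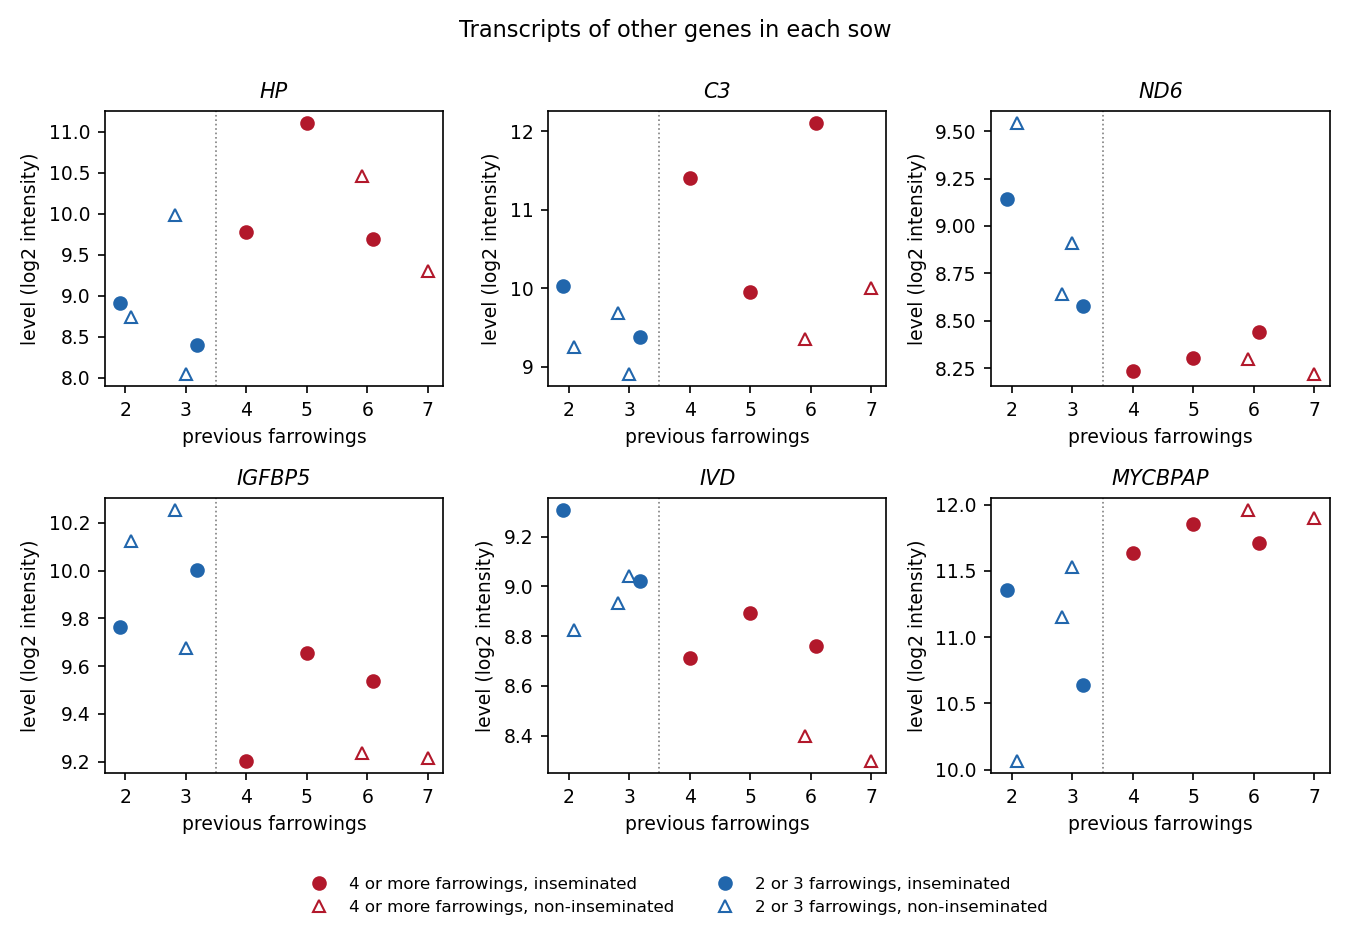
Level (log2 intensity) of HP, C3, ND6, IGFBP5, IVD and MYCBPAP in each of the 10 sows against its number of previous farrowings, with symbols for class and insemination as in the legend. The dotted line separates the classes, which do not overlap in ND6, IGFBP5 and MYCBPAP, meet at 1 or 2 sows in HP and IVD, and overlap in C3.

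Among stress and ageing genes, 23 of 30 measured members of the ageing list were higher in mean (median 0.05). FOXO3, a transcription factor of stress resistance, was lower (-0.23 ± 0.10), at 9.51 to 9.66 with more and 9.56 to 9.97 with fewer farrowings. The difference came mainly from 1 of its 2 features (-0.38 ± 0.16), the other being at -0.07 ± 0.09. Of the antioxidant and detoxifying enzymes 20 of 36 were higher, and 3 had an unadjusted p under 0.05, against 3.22% of all genes. TXNIP, the inhibitor of thioredoxin, had a difference of 0.54 ± 0.22 (0.36 without AI696) with all 9 features higher, and EPHX1, a hydrolase of epoxides, one of 0.62 ± 0.25. The glutathione transferase GSTT1 was lower by 0.40 on the log2 scale (SE 0.17). Steroid receptors and responsive genes, through which oestradiol and progesterone act, had 18 of 29 measured members higher (median 0.04), and none had an unadjusted p under 0.05.

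Other lists differed little from the median over all genes. The median was 0.03 for smooth muscle, 0.04 for stroma and collagens, -0.04 for matrix proteases and their inhibitors, 0.05 for endothelium and vessels, 0.02 for T and NK cells, 0.09 for B and plasma cells (6 measured members), 0.02 for eicosanoid and contraction genes, 0.04 for the cell cycle, 0.02 for adipose tissue and 0.01 for ovarian follicle and cumulus. Skeletal muscle and nerve genes had 20 of 26 measured members lower (median -0.07, and -0.02 without AI1061), and 13 of the 26 lay above the array median. Of them TTN, the giant spring protein of muscle, had a difference of -0.55 ± 0.24. Of the vessel genes SELE, an adhesion molecule of activated endothelium, did not overlap (6.80 to 6.96 against 6.98 to 7.40, difference -0.24 ± 0.10), at levels below or near the median of all values. The difference came from 1 of its 2 features (-0.48 ± 0.18), the other being at -0.01 ± 0.12.

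Further members of the lists are given here by their ranges. PIGR, the receptor that carries immunoglobulin A across epithelia, lay between 7.64 and 8.90 with more and between 7.39 and 7.77 with fewer farrowings (difference 0.42 ± 0.19, and 0.26 without AI792, the sow with the highest level). The membrane mucin MUC4 overlapped more widely, at 8.67 to 9.42 against 7.92 to 9.27 (0.54 ± 0.29, with 0.31 without AI1059 and 0.20 among the sows operated on day 1). GZMA, a protease of cytotoxic lymphocytes, was at 7.80 in AI788 and 7.87 in AI792 and between 6.49 and 6.91 in the other 8 sows (0.54 ± 0.24, and 0.33 without AI788). PIGR and GZMA were thus highest in 1 or 2 sows, and MUC4 was lowest in AI1059 and AI1061. DGAT2, an enzyme of triglyceride synthesis, lay between 6.28 and 6.70 with more and between 6.69 and 7.04 with fewer farrowings (-0.37 ± 0.11; exact permutation test, p = 0.01), and the difference was -0.15 by the brighter of its 2 features. The fainter DGAT2 feature read 5.556, 6.105 and 5.947 in AI788, AI792 and AI837, under the 1st percentile of all values (6.145). SLC4A1, the anion exchanger of red blood cells, lay between 6.28 and 7.00 against 6.83 to 7.70 (-0.52 ± 0.18). Except in AI991 and AI1061, SLC4A1 lay below the median of all values (7.09). PCNA, the sliding clamp of DNA replication, was at 7.61 to 7.98 in all sows with more farrowings and spread from 6.58 to 8.12 in those with fewer (0.56 ± 0.25, and 0.31 among the sows operated on day 1).

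A 2-fold difference between the class means was found in 9 genes (0.197%), 4 higher and 5 lower with more farrowings. Besides HP, 6 of them rested on the level of a single sow. POU3F4, a transcription factor, was at 13.54 in AI696 and between 6.5 and 6.96 in the other 9 sows. LOC100522401 was at 12.69 in AI792, GTF3C4 at 15.01 in AI1059, LOC100512793 and EFNB2, a ligand of ephrin receptors, at 12.25 and 13.06 in AI1061, and the homeobox gene HOXA13 at 14.29 in AI992, while the other 9 sows lay below 8 in each. Each of the 6 had 1 feature, and without AI1061 the differences of LOC100512793 and EFNB2 were -0.17 and -0.13. GSTA1, a glutathione transferase, ranged from 7.09 to 12.33 with more and from 6.73 to 13.03 with fewer farrowings (difference -1.40 ± 1.21), and the cytokine IL19 had a difference of 1.06 ± 1.1.

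**Figure D5:**
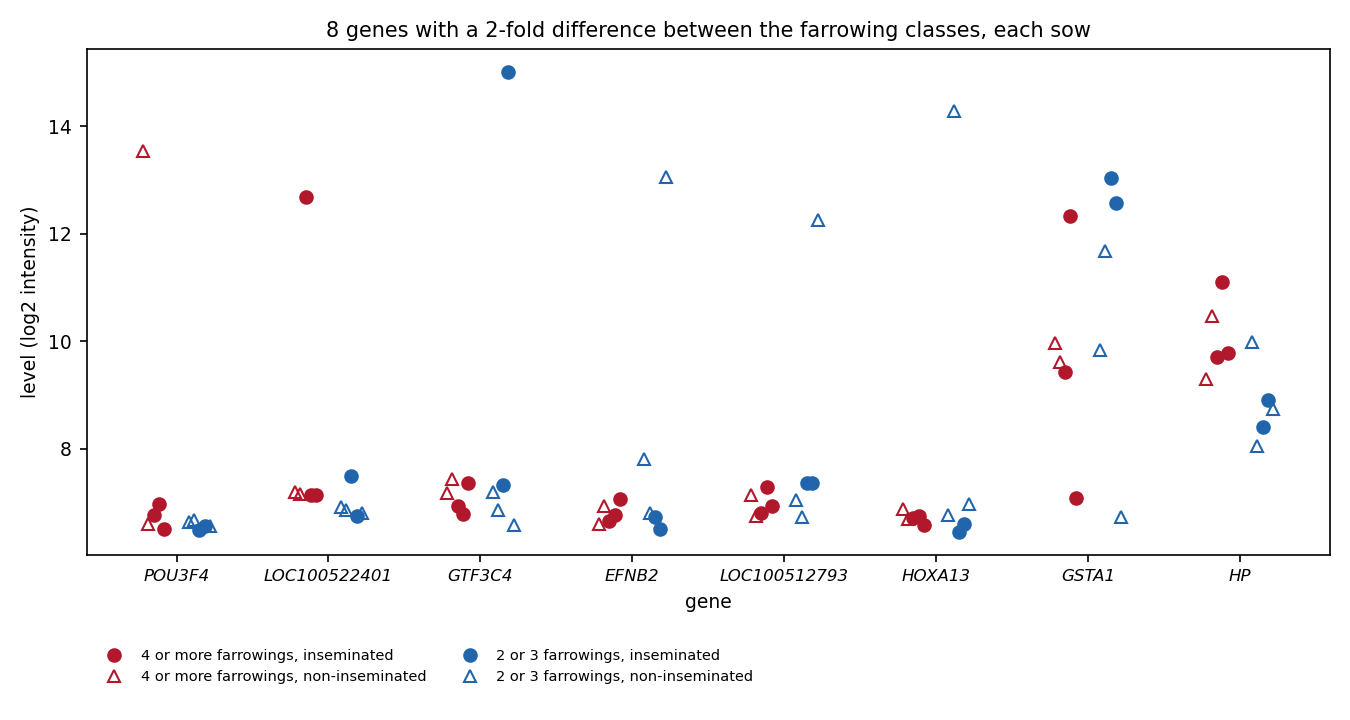
Level (log2 intensity) of 8 of the 9 genes with a 2-fold difference in class means (IL19 is not drawn), in each of the 10 sows, with colour for the farrowing class and symbol for insemination. In 6 genes 1 sow lies above 12 and the other 9 below 8, whereas the levels of GSTA1 and HP are spread over both classes.

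Whether the difference between the farrowing classes itself differed between inseminated and non-inseminated sows was tested as an interaction. No feature of 45220 passed (limma, smallest adjusted p 0.824, with 997, or 2.2%, at an unadjusted p under 0.05), and no gene did (77, or 1.69%). The smallest adjusted p over genes was 0.081, for RASGEF1A, an activator of small GTPases of the RAS family. Among inseminated sows it was at 8.93, 9.12 and 9.17 with 4 or more farrowings and at 10.16 and 10.57 with 2 or 3. Among non-inseminated sows it was at 9.76 and 9.83 with more and at 9.15, 9.06 and 9.32 with fewer. The classes thus lay apart in opposite directions, an arrangement found in 58 genes (1.27%), and the interaction was -1.91 ± 0.23 (SE).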

How the data were processed

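Total RNA of 1 sow was hybridised to each of 10 single-colour porcine oligonucleotide arrays. The deposited values are log2 intensities, which the authors obtained from scanned spots by normexp background correction with an offset of 10 and quantile normalization in limma. No detection calls or slide numbers were used here, so the number of arrays limits the precision. The numbers of previous farrowings, surgery days and progesterone were read from the study's description of the animals.

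Of 45220 features, 10290 had 1 gene symbol in the platform annotation (4560 symbols) and 34930 had none; 6055 were updated through their accession, which changed 446 symbols. Features of a symbol were averaged. Differences between the farrowing classes were fitted with insemination as a covariate in limma 3.58.1 (R 4.3.3), tested on simulated data, and p-values were adjusted by Benjamini-Hochberg across the whole set of features or genes, with a threshold of 0.05. Single genes were also tested by exact permutation of class within insemination (100 arrangements). The p-values measure the spread between these sows.

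Named by rule were genes with a difference of at least 1 on the log2 scale and a mean level above the 40th percentile (up to 10 per direction), and from each list the 3 members, or fewer, whose unadjusted p was smallest and under 0.1. IVD, BCO2, MYCBPAP, ENO4, BAG3, AHSA1, CDH16, HSP70.2, DNAJB1, ATP6, COX2, CYTB, ATP5B, USP18, KDR, RASGEF1A and the other genes named were chosen after their values were seen. The comparison and the lists were chosen with earlier results of these data known. Alternatives changed covariates, normalization, filter, variance model, feature summary and sows. The values of 1 gene are not reported here.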

Additional observations from a re-analysis of the deposited data

Results flagged for a closer look

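In 140 groups of 5 sows (70 named genes in 2 farrowing classes) 16 sows stood apart from the other 4 of their class by Dixon's criterion, 5 of them AI1061. The criterion marks about 5% of unselected groups by chance. The named genes include those picked for a 2-fold difference, which a single sow can produce, so the 16 cannot be set against that rate. Among sows with 4 or more farrowings, AI696 was high in POU3F4 (13.54, the others at most 6.96) and in the angiopoietin ANGPT1 (8.13, the others at most 7.44). For the vascular receptor KDR the level of AI696 was 10.33 (the others at most 7.55), the mean of 13.07 and 7.60 on its 2 features. AI792 was high in LOC100522401 (12.69) and in TAP1 (9.0, the others at most 8.07), and AI788 in the cytokine TNFSF13 (9.64, the others at most 8.63).

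Among sows with 2 or 3 farrowings, AI1061 was high in LOC100512793 (12.25), EFNB2 (13.06) and SIGLEC1 (9.20, the others at most 7.45), and low in DNAH9 (14.47, the others at least 15.21) and in the kidney-type cadherin CDH16 (9.39, the others at least 10.01). AI1059 was high in GTF3C4 (15.01) and low in HSPD1 (10.89, the others at least 11.33), AI992 was high in HOXA13 (14.29), and AI993 was high in LOC100522401 (7.49) and in the transcription factor CEBPA (6.71, the others at most 6.44).

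The difference between farrowing classes in RASGEF1A was -1.29 among inseminated and 0.62 among non-inseminated sows, with every sow of a class on the same side in each. The interaction was -1.91 (adjusted p = 0.081 in limma).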

How the results depend on the processing

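Under every alternative, 0 features and 0 genes passed an adjusted p of 0.05 between the classes. At an unadjusted p under 0.05, features numbered 3089 with progesterone as a further term, 3936 with a linear term for farrowings, 681 among non-inseminated sows, 942 among sows operated on day 1, 884 with features under the 40th percentile left out, and 1065 (without AI1059) to 2996 (without AI993) with each sow left out. Genes numbered 371 with progesterone, 423 with the linear term, 232 among inseminated sows, 44 among non-inseminated sows, 79 on day 1, and 69 (without AI1059) to 286 (without AI993) with each sow left out. The interaction gave 0 to 38 features with each sow left out, 38 without AI1059, 33 without AI993, 20 without AI696, 5 without AI788 and 2 without AI1061. RASGEF1A had an adjusted p of 0.0343 without AI993 and of 0.105 to 0.367 without any other sow.

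Of 70 named genes, 64 kept their direction in all alternatives, and of 1676 values 10 were turned. GTF3C4 was at 0.43 among non-inseminated sows, 0.06 on day 1, and -2.80 to 0.15 with each sow left out (0.15 without AI1059). HOXA13 was at 0.12 with progesterone, 0.16 among inseminated sows, and -1.66 to 0.049 with each sow left out (0.049 without AI992). Among non-inseminated sows GSTA1 was at 0.37, IGFBP3 at -0.03 and RASGEF1A at 0.62, and EFNB2 was at 0.21 among inseminated sows. The causes were not tested. No paired analysis was possible because the labels give the classes no shared replicate numbers.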
